A study of Mus musculus with 2 samples.

Results

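The cytosolic heat shock chaperones described here are 10 genes measured in the mouse sigmoid colon, the part of the large bowel just above the rectum. They are Hspa1a, Hspa1b and Hspa8 of the HSP70 family, Hsp90aa1 and Hsp90ab1 of the HSP90 family, the small heat shock protein genes Hspb1, Hspb8 and Cryab, and the co-chaperone genes Dnajb1 and Hsph1. Each was taken from the deposited gene tables by matching its Ensembl identifier to its symbol, which found all 10 members among 43346 Ensembl genes. Polyadenylated RNA came from 1 adult female mouse of the inbred C57BL/6J strain, aged 10 weeks, with no treatment, transgene or altered allele given in the labels. The labels describe 2 technical libraries of this 1 biological replicate, numbered here as the labels number them (library 2 and library 1), and date library 2 to 2015. All data thus belong to a single group from a single animal. Each test between the libraries compares these libraries only, and each SD is over n = 2 technical libraries. The labels state no question beyond profiling the tissue.

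Chaperones bind unfolded stretches of other proteins and let them fold or refold. HSP70 proteins clasp short hydrophobic segments in a cycle driven by ATP, in which J-domain proteins such as the Dnajb1 product deliver the client and speed ATP use, and nucleotide exchange factors such as the Hsph1 product reset the cycle. HSP90 proteins receive partly folded clients from HSP70, among them kinases and steroid receptors, while small heat shock proteins hold unfolded proteins without using ATP. Heat shock factors, Hsf1 foremost, bind heat shock elements, which are inverted repeats of a GAA unit, and raise transcription of the inducible members under stress. Hspa8 and Hsp90ab1 are the forms that most cells make constantly, and Cryab, Hspb1 and Hspb8 are known to be abundant in muscle.

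Promoter sequences from RefSeq (GRCm38.p6) were found for 6 of the 10 members: Hspa1a, Hspa1b, Hspb1, Hspb8, Dnajb1 and Hsph1. The heat shock element was searched as a pair of units, GAANNTTC or TTCNNGAA, each of which reads the same on both strands, in the 250 bases upstream of each annotated start. It occurred once in Hspa1a and once in Hspa1b, both at position -104 from the start, and at positions -117 and -97 in Hspb1. It also occurred in Hsph1, at -54 or -33 depending on which of 2 annotated starts is used, and these letters were not in the windows of Dnajb1 or Hspb8. Of all 32544 promoter windows of this length, 12.9% held the pair. A run of 3 units occurred in none of the 6 members' windows and in 0.470% of all windows. The 3 promoters below are shown because they carry the element, with its letters in capitals, and because the first and second are near copies of each other.
Hspa1a, chr17:34972157-34972406, minus strand: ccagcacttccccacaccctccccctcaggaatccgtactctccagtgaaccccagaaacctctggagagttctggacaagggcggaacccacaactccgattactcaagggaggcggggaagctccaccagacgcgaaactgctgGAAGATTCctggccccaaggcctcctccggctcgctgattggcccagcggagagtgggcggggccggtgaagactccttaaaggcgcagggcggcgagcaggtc
Hspa1b, chr17:34959239-34959488, minus strand: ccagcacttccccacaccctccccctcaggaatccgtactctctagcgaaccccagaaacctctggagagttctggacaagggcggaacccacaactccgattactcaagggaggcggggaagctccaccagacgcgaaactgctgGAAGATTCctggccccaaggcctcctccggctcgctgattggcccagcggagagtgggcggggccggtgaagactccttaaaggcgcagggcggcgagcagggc
Hspb1, chr5:135887669-135887918, plus strand: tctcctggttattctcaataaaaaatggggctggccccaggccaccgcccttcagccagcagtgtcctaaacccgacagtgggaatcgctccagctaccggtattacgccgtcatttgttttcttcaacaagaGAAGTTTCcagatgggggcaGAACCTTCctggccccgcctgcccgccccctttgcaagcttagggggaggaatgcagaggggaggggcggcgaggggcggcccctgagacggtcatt

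The Hspa1a and Hspa1b windows were identical at 247 of 250 bases (98.8%). The GC box, searched as GGGCGG or CCGCCC, occurred in the windows of all 6 members and in 33.0% of all windows. The CCAAT box, searched as CCAAT or ATTGG, occurred at -67 in Hspa1a and in Hspa1b, at -151 from 1 of 2 annotated starts of Dnajb1 and at 2 places in Hsph1, and in 33.8% of all windows. The TATA box, searched as TATAAA or TTTATA, was in none of the 6 and in 12.3% of all windows. No heat shock element overlapped a GC, CCAAT or TATA box in these windows. Such a match is a description of letters, not a site shown to be bound.

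The libraries differed in make-up. Library 2 held 20681575 expected counts and library 1 held 25843064, and mitochondrial genes with their nuclear copies took 8.42% of the counts in library 2 and 33.9% in library 1. On the scale of TPM, a transcript abundance corrected for length and scaled to a fixed total, they took 21.8% in library 2 and 67.3% in library 1, so nuclear protein-coding genes shared 753435 TPM in library 2 and 313320 TPM in library 1. Levels are therefore given as deposited TPM, and sums also over nuclear protein-coding genes alone (nuclear TPM). Ratios between libraries are of expected counts scaled by effective library size, log2 of library 2 over library 1, and the ± beside them is a counting standard error. A gene passed as higher or lower in library 2 when its ratio reached 2-fold with an adjusted p under 0.05, which 36.9% of the 15705 genes tested did as higher and 28.1% as lower. Marker genes of the labelled tissue were present in both libraries. The 10 epithelial genes summed to 8491 TPM in library 2 and 1020 TPM in library 1, or 11270 and 3255 nuclear TPM. The 7 goblet cell genes summed to 30401 TPM in library 2 and 4703 TPM in library 1, or 40350 and 15009 nuclear TPM. Of the epithelial genes 7 passed as higher and 0 as lower, and of the goblet cell genes 5 and 0. With the trend of the ratios on transcript GC content taken off, 2 epithelial genes were higher and 3 lower (median log2 ratio 0.15). Of the goblet cell genes, 7 were then higher and 0 lower (median 2.46). The shares of all genes were then 12.3% higher and 11.0% lower. In bulk tissue, fewer cells of a type and less RNA per cell cannot be told apart. Nor was either told apart here from the difference in make-up of the libraries.

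Together the 10 members made up 1834 TPM in library 2 and 1031 TPM in library 1 (mean 1433 ± 568, SD). Over nuclear protein-coding genes alone the order was the other way, with 2434 nuclear TPM in library 2 and 3291 in library 1. Hspa8, Hsp90aa1 and Hsp90ab1 held 86.1% of the members' TPM in library 2 and 97.2% in library 1. The other 7 members lay between 9.19 and 127 TPM in library 2 and between 0.52 and 12.1 TPM in library 1. The plot of levels by library shows Hspa8 and Hsp90ab1 above the rest in both libraries. Hspb1 was near Hsp90aa1 in library 2 and below all other members in library 1.

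**Figure D1:**
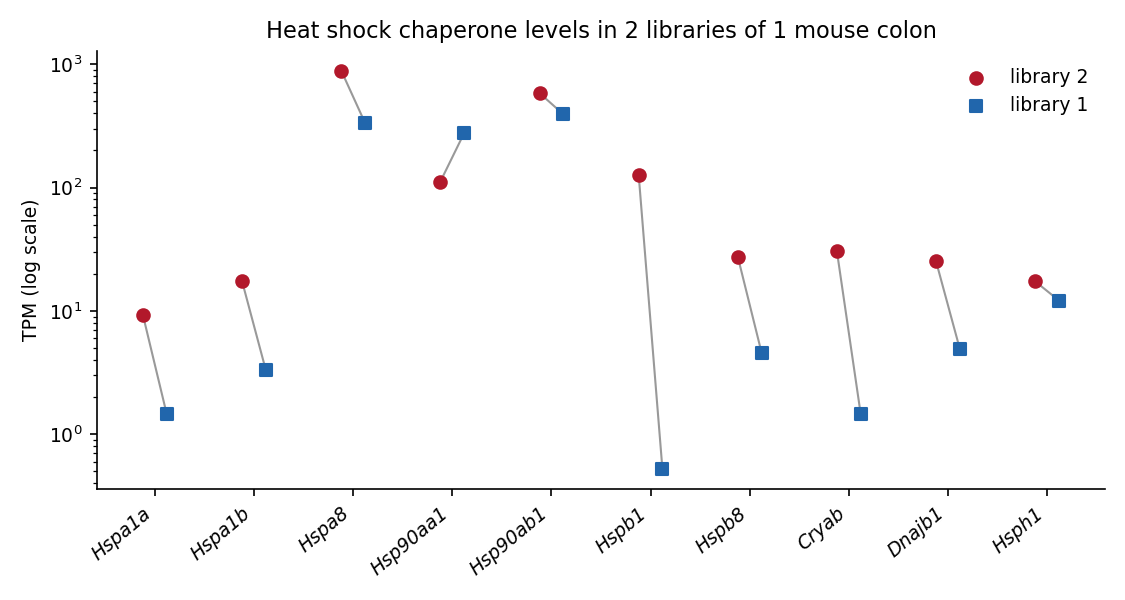
TPM of the 10 members on a log axis, with library 2 as circles on the left of each pair and library 1 as squares on the right. Hsp90aa1 is the member with the lower TPM in library 2 (112) than in library 1 (277), and Hspb1 has the widest gap, at 127 TPM in library 2 and 0.52 TPM in library 1.

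Among the HSP70 members, Hspa8, the constitutive cytosolic HSP70 that also uncoats clathrin vesicles (ENSMUSG00000015656.12, chromosome 9, 40800984 to 40810087 on GRCm38, as for all positions, plus strand), was at 885 TPM in library 2 and 334 TPM in library 1. It ranked 129 among 21461 nuclear protein-coding genes in library 2 and 109 in library 1, so its rank was near the top in both. Its expected counts were 26792 in library 2 and 15030 in library 1, a log2 ratio of 0.40 ± 0.01 that stayed under 2-fold. Hspa1a, one of a pair of stress-inducible HSP70 genes (ENSMUSG00000091971.3, chromosome 17, 34969190 to 34972156, minus strand), was at 9.19 TPM in library 2 and 1.45 TPM in library 1. Hspa1b, the other gene of the pair (ENSMUSG00000090877.3, chromosome 17, 34956436 to 34959238, minus strand), was at 17.3 TPM in library 2 and 3.29 TPM in library 1.

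As a pair, the inducible genes summed to 26.5 TPM in library 2 and 4.74 TPM in library 1, or 35.2 and 15.1 nuclear TPM. Hspa8 thus stood 33.4-fold above the pair in library 2 and 70.5-fold above it in library 1. Hspa1b was above Hspa1a in both libraries, by 1.88-fold in library 2 and 2.27-fold in library 1. The order Hspa8, Hspa1b, Hspa1a was thus the same in both libraries. Hspa1a had 368 expected counts in library 2 and 97 in library 1, a log2 ratio of 1.49 ± 0.16. Hspa1b had 653 in library 2 and 207 in library 1, a log2 ratio of 1.23 ± 0.11. Both passed the test as higher in library 2, as did 36.9% of all tested genes and 93.0% of those of 55 to 60% GC, the range of both.

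Hspa1a and Hspa1b are near copies that lie 9951 bases apart on the same strand, each with 1 exon. Reads from the parts they share are thus hard to assign to 1 of them. Their coding sequences differed at 8 aligned bases (99.4% identity), and the 641 and 642 residue proteins had 0 substitutions and 1 residue of length difference. Of the coding bases of Hspa1a, 99.5% lay in 31-base stretches that also occur in Hspa1b, against 3.32% of its 3′ UTR. The shared bases had a GC content of 65.4%, whereas bases not shared had 42.2% in Hspa1a and 34.5% in Hspa1b. A stretch of 60 coding bases, at positions 1357 to 1416 counted from the start codon, is shown because it holds 2 of the few differences, A1380G and A1416G (Hspa1a base first), in capitals.
Hspa1a: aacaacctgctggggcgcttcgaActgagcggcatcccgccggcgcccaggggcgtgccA
Hspa1b: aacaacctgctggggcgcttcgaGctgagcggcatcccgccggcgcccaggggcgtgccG
The longest run of coding bases with no difference was 638. The deposited posterior standard deviation of the count reports how uncertain the sharing out of ambiguous reads was. It was 13.4 counts for each gene in library 2, on 368 counts of Hspa1a and 653 of Hspa1b, and 0 for both in library 1. The library 1 counts of the pair were whole numbers, and those of library 2 were not. Gm20481, which shares 564 exon bases with Hspa1a on the other strand, had 0 counts in both libraries.

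**Figure D2:**
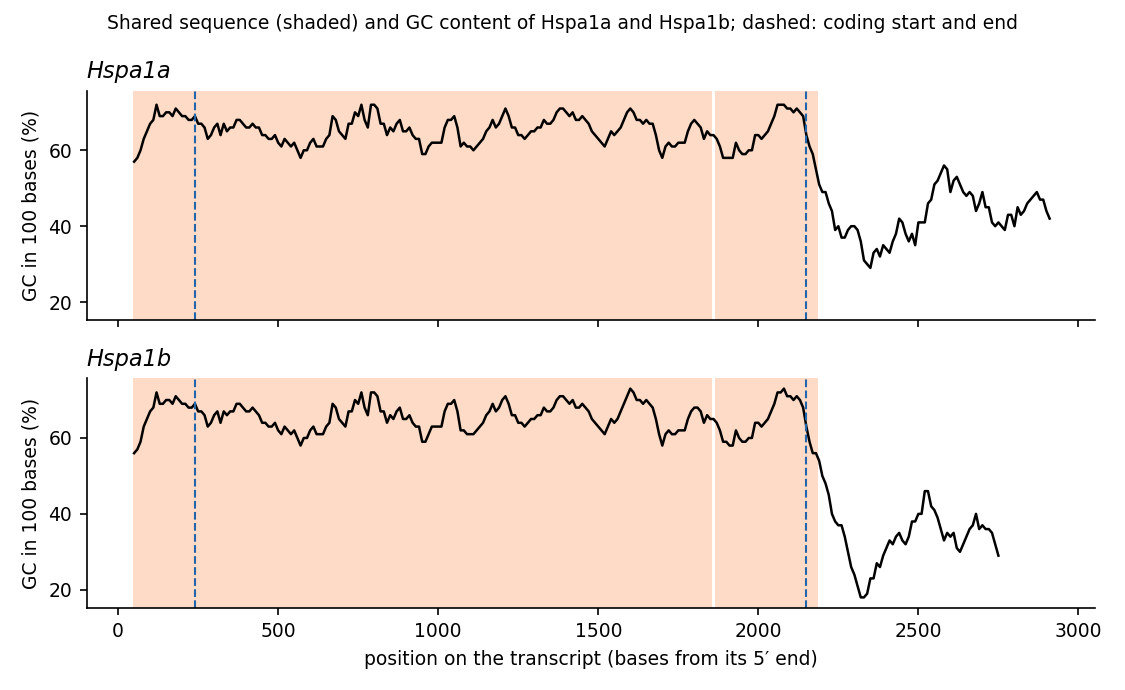
GC content in windows of 100 bases along the Hspa1a (above) and Hspa1b (below) transcripts, with bases in 31-base stretches common to both genes shaded and the coding start and end dashed. The shaded part, with a GC content of 65.4% over all shared bases, ends near the stop codon, and the unshaded 3′ part is lower in GC in both genes.

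Among the HSP90 members, Hsp90ab1, the constitutive cytosolic form (ENSMUSG00000023944.10, chromosome 17, 45567775 to 45573271, minus strand), was at 583 TPM in library 2 and 392 TPM in library 1. Its rank was 190 in library 2 and 89 in library 1. Hsp90aa1, the more stress-responsive form (ENSMUSG00000021270.9, chromosome 12, 110690605 to 110702728, minus strand), was at 112 TPM in library 2 and 277 TPM in library 1, with rank 1078 in library 2 and 154 in library 1. By TPM, Hsp90aa1 was lower and Hsp90ab1 higher in library 2. Over nuclear protein-coding genes alone both were lower in library 2, with Hsp90ab1 at 774 nuclear TPM in library 2 and 1252 in library 1 and Hsp90aa1 at 148 in library 2 and 883 in library 1. Hsp90aa1 had 4577 expected counts in library 2 and 11660 in library 1, a log2 ratio of -1.78 ± 0.03, and passed as lower in library 2. Hsp90ab1 had 19356 in library 2 and 8991 in library 1, a log2 ratio of 0.68 ± 0.02 that stayed under 2-fold. The summed TPM of the pair was 695 in library 2 and 669 in library 1 (mean 682 ± 18.1, SD). The same sum over nuclear protein-coding genes was 922 nuclear TPM in library 2 and 2135 in library 1.

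The ratio of Hsp90aa1 to Hsp90ab1 was 0.192 in library 2 and 0.705 in library 1 by TPM. By expected counts, which are not corrected for length, it was 0.236 in library 2 and 1.30 in library 1, so in library 1 the order of the HSP90 genes depended on the unit. The deposited mean transcript length of Hsp90ab1 was 2491 bases in library 2 and 1140 bases in library 1, and that of Hsp90aa1 was 3029 bases in library 2 and 1939 bases in library 1. Translated from the GENCODE M21 coding sequences, the HSP90 proteins, 733 residues for Hsp90aa1 and 724 for Hsp90ab1, were 85.9% identical.

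Transcript shares changed with the library for the 3 abundant genes, and these shares set the mean lengths just given. Hsp90ab1-201, the full-length coding transcript, took 98.3% of the gene's TPM in library 2 and 28.2% in library 1. In library 1, Hsp90ab1-208, an annotated transcript of 656 bases, took 58.1%, and Hsp90ab1-202, of 351 bases, took 13.4%, and both took 0% in library 2. All 656 bases of Hsp90ab1-208 also occur in Hsp90ab1-201, between its positions 17 and 1311, but not as 1 unbroken stretch. Between these positions Hsp90ab1-208 lacks 639 bases, which lie within positions 139 to 777 of Hsp90ab1-201. For Hsp90aa1, Hsp90aa1-201 took 45.0% in library 2 and 55.7% in library 1, and Hsp90aa1-202 took 52.9% in library 2 and 4.83% in library 1. The short retained-intron transcript Hsp90aa1-205, of 487 bases, took 1.86% in library 2 and 39.5% in library 1. The bases that Hsp90aa1-202 has beyond Hsp90aa1-201 had a GC content of 52.4%, against 42.1% for the bases they share. The bases of Hsp90aa1-201 that Hsp90aa1-202 lacks had 53.0%. Hsp90aa1-205 had 45.1% in the bases it has beyond Hsp90aa1-201, against 37.8% in those shared. In Hsp90ab1, the bases that Hsp90ab1-208 lacks had 50.8%, against 51.7% for those it shares with Hsp90ab1-201. The bases that Hsp90ab1-202 has beyond Hsp90ab1-201 had 63.1%, against 48.0% for those shared. For Hspa8, Hspa8-201 took 72.1% in library 2 and 18.5% in library 1, and Hspa8-202 took 26.8% in library 2 and 77.5% in library 1. Hspa8-202 lacks 375 bases of Hspa8-201, most of them at the 5′ end, and these had a GC content of 64.5%, against 48.7% for the bases shared. Whether these shares reflect different molecules or different coverage along the same molecules was not tested. The other members gave at least 90.2% of their TPM to 1 transcript in each library.

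**Figure D3:**
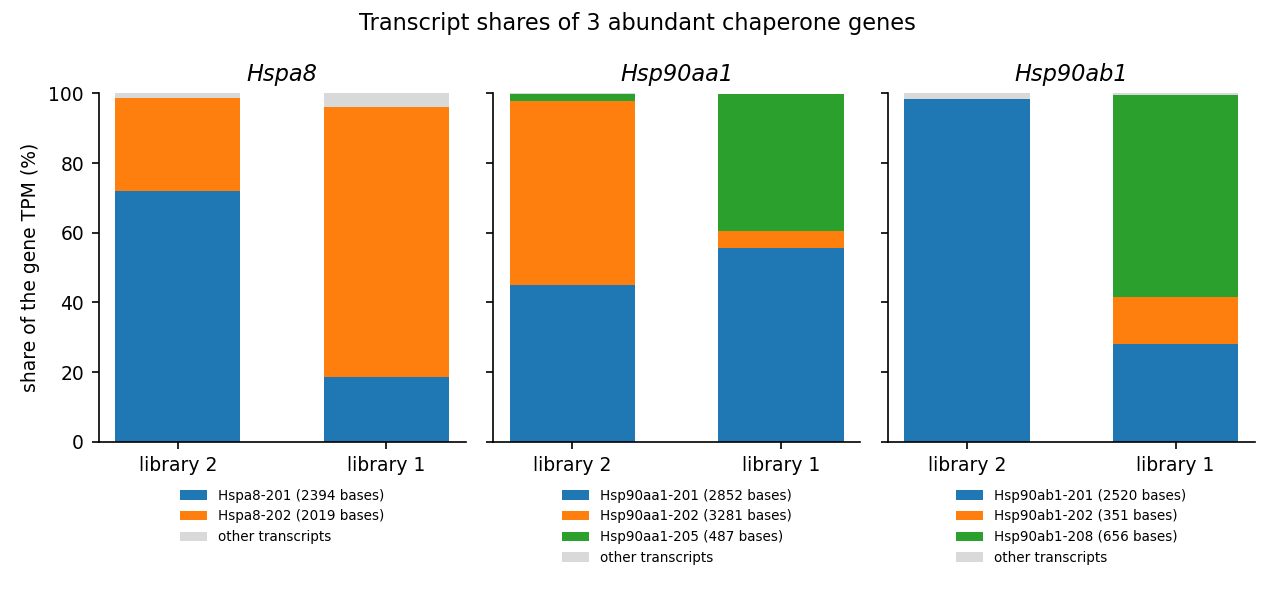
Share of each gene's TPM given to each annotated transcript of Hspa8, Hsp90aa1 and Hsp90ab1, as stacked bars with library 2 on the left and library 1 on the right. In each gene the leading share differs between the libraries, for example 98.3% in library 2 and 28.2% in library 1 for Hsp90ab1-201.

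Among the small heat shock genes, Hspb1, whose product HSP25 binds unfolded proteins and actin (ENSMUSG00000004951.10, chromosome 5, 135887919 to 135889563, plus strand), was at 127 TPM in library 2 and 0.52 TPM in library 1. Its rank was 909 in library 2 and 11460 in library 1, the widest gap among the members. It had 1326 expected counts in library 2 and 9 in library 1, where the exact Poisson 95% interval for 9 counts was 4.12 to 17.1. The log2 ratio was 6.70 ± 0.47, or 104-fold. Cryab, the alpha B-crystallin chaperone of muscle and lens (ENSMUSG00000032060.9, chromosome 9, 50751325 to 50756636, plus strand), was at 30.4 TPM in library 2 and 1.46 TPM in library 1. It had 440 counts in library 2 and 35 in library 1 (24.4 to 48.7), a log2 ratio of 3.20 ± 0.25. Hspb8, which works with the co-chaperone BAG3 in selective autophagy (ENSMUSG00000041548.4, chromosome 5, 116408491 to 116422864, minus strand), was at 27.5 TPM in library 2 and 4.59 TPM in library 1. It had 647 counts in library 2 and 180 in library 1, a log2 ratio of 1.41 ± 0.12. All 3 small heat shock members passed as higher in library 2, as did 36.9% of all tested genes. In the GC range of Hspb8 (50 to 55%), 53.7% of genes passed as higher. In that of Cryab (55 to 60%) 93.0% did, and in that of Hspb1 (60 to 65%) 96.0% did. The order among the members differed between the libraries. Hspb1 was 4.19-fold above Cryab in library 2. In library 1, where Hspb1 rested on 9 counts, it was at 0.356 of the Cryab level. These intervals cover counting error only.

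Cryab lies head to head with Hspb2 on the opposite strand, and their exons share 252 bases. Hspb2 had 33 counts in library 2 and 0 in library 1. Whether counting used strand is not given in the sources used here, and reads from the bases these genes share cannot be assigned with certainty. A processed copy of Hspb1, Hsp25-ps1, holds 89.8% of its own 31-base words in common with Hspb1 and had 3.76 counts in library 2 and 0 in library 1. Compared in the sense direction, the 31-base words of Hspb8, Cryab and Hsph1 occurred in no other gene, a comparison that leaves out the opposite-strand overlap of Cryab with Hspb2. Of 10 smooth muscle markers, 8 passed as higher in library 2 and 0 as lower, beside 36.9% and 28.1% of all tested genes. With the trend of the ratios on transcript GC content taken off, 6 were higher and 1 lower (median log2 ratio 1.29). The shares of all genes were then 12.3% higher and 11.0% lower. Of the small heat shock members, Hspb1 (1.65) then stayed higher, and Hspb8 (0.03) and Cryab (0.65) no longer passed. The 10 markers summed to 5139 TPM in library 2 and 480 TPM in library 1, or 6820 and 1531 nuclear TPM. Among them, the enteric actin gene Actg2 was at 1207 TPM in library 2 and 84.9 TPM in library 1. Skeletal muscle markers summed to 33.4 TPM in library 2 and 0.76 TPM in library 1, or 44.4 and 2.43 nuclear TPM. Among these, Acta1 was listed at 15.3 TPM in library 2 and 0 in library 1 and Myh4 at 0 in both. The part of muscle content in the small heat shock levels was not tested.

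Of the co-chaperones, Dnajb1, the J-domain partner of inducible HSP70 (ENSMUSG00000005483.9, chromosome 8, 83608193 to 83612653, plus strand), was at 25.3 TPM in library 2 and 4.92 TPM in library 1. It had 756 counts in library 2 and 246 in library 1, a log2 ratio of 1.19 ± 0.11, and passed as higher in library 2. Hsph1, an HSP110 protein that exchanges nucleotide on HSP70 (ENSMUSG00000029657.11, chromosome 5, 149614287 to 149636376, minus strand), was at 17.4 TPM in library 2 and 12.1 TPM in library 1. It had 876 counts in library 2 and 1071 in library 1, a log2 ratio of -0.72 ± 0.07 that stayed under 2-fold. Its direction depended on the scale: its TPM was higher in library 2, and its scaled count was lower. The Hsph1 protein was 26.8% identical to that of Hspa1a, and Hspa8 was 83.9% identical to Hspa1a.

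Across all 10 members, 6 passed as higher in library 2, 1 passed as lower and 3 did not reach 2-fold. The shares of all tested genes were 36.9% higher and 28.1% lower. The median log2 ratio was 1.21 over the members and 0.12 over all genes tested. Among the 7 members that passed, the largest adjusted p was 1.4e-22 (exact binomial test, Benjamini-Hochberg over all genes tested). The 3 others also had an adjusted p under the limit by that test, so for the members the 2-fold limit set which passed.

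The ratios followed the GC content of the transcripts. Over 15658 tested genes, the Spearman correlation between GC content and the log2 ratio was 0.90, and over the 10 members it was 0.94 (0.92 over 9 without Hspb1), all within the same library pair. Among genes of 40 to 45% GC, the median log2 ratio was -1.57, and among those of 55 to 60% GC it was 3.52. The members ranged from 41.6% in Hsp90aa1 to 60.7% in Hspb1, and 8 of 10 lay above the median of all tested genes, 49.9%. The one member that passed as lower in library 2, Hsp90aa1, was the one with the least GC, and the one with the highest ratio, Hspb1, had the most.

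**Figure D4:**
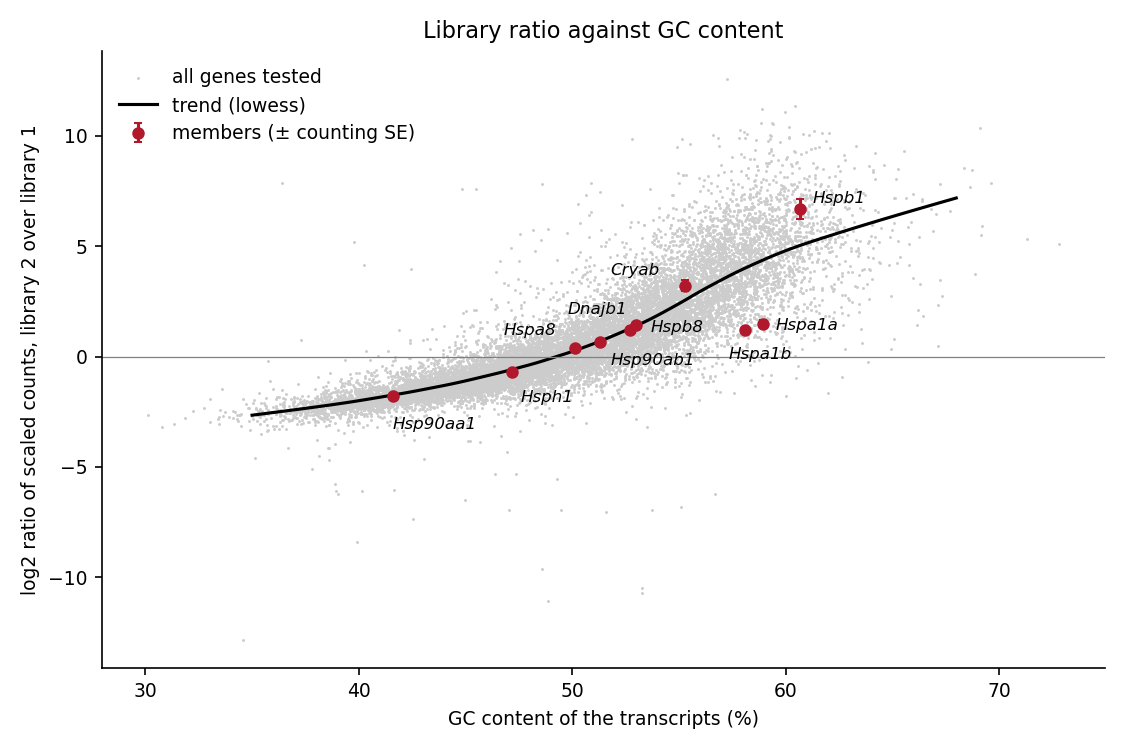
Log2 ratio of scaled counts, library 2 over library 1, against transcript GC content for all tested genes (grey), with the lowess trend (line) and the 10 members (red, ± counting SE). Most members lie near the line, whereas Hspa1a and Hspa1b lie below it, at 1.49 and 1.23 where the trend is at 4.38 and 4.01.

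With the trend taken off, 6 of 10 members had a log2 ratio of at most 0.2 in size, beside 23.4% of all genes. The trend was fitted to these same ratios, those of the members among them. Hsp90aa1 was at -0.03 (adjusted p = 0.26 by the exact binomial test), Hsp90ab1 at -0.02 (0.39), Hspb8 at 0.03 (0.88), Dnajb1 at -0.08 (0.59), Hsph1 at -0.13 (0.07), Hspa8 at 0.13 (2e-19) and Cryab at 0.65 (0.012), all under 2-fold. Hspb1 stayed higher in library 2, at 1.65 or 3.15-fold (adjusted p = 4.6e-05, exact binomial test). That ratio rests on 9 counts in library 1, and its p-value does not cover the error of the trend. Hspa1a and Hspa1b turned round and passed as lower in library 2, at -2.89 and -2.79. Thus 1 of 10 members passed as higher and 2 of 10 as lower, beside 12.3% and 11.0% of 15658 genes. The median was -0.03 over the members and -0.01 over all genes. The trend was read at the GC content of the whole transcript, which for Hspa1a and Hspa1b mixes a coding part of 65.0 and 65.3% with a 3′ UTR of 42.9 and 34.4%. The part of this mixture in their place below the trend was not tested.

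**Figure D5:**
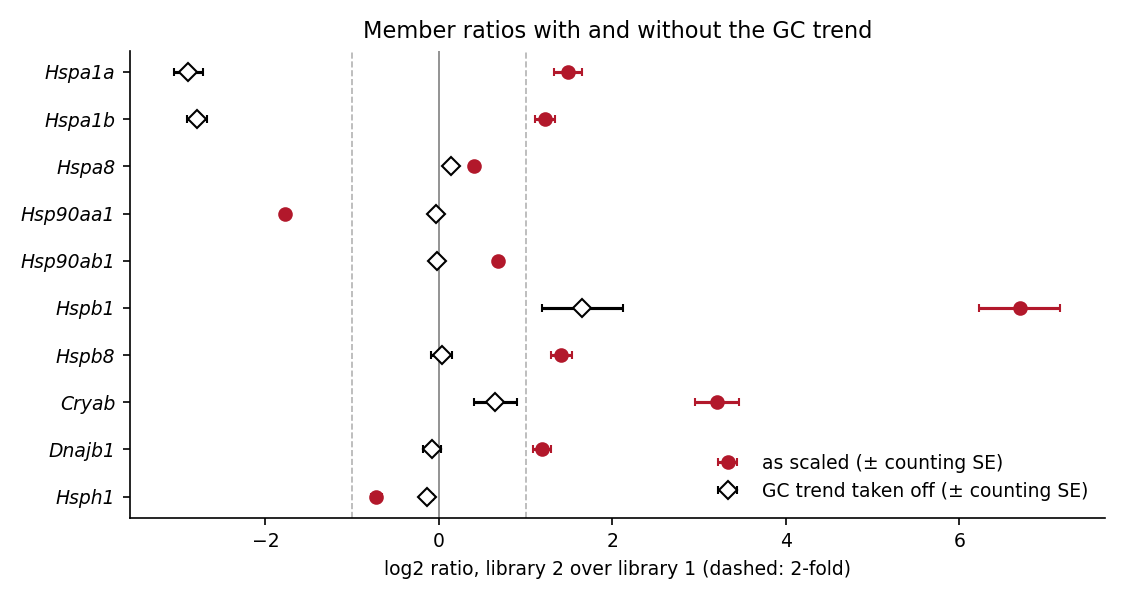
Log2 ratio of each member, library 2 over library 1, as scaled (filled circles) and with the GC trend taken off (open diamonds), each ± counting SE, which does not cover the error of the trend. With the trend off, 7 of 10 members lie within the dashed 2-fold lines. Hspb1 lies above them at 1.65, and Hspa1a and Hspa1b lie below them at -2.89 and -2.79. Of 15658 genes, 12.3% then passed as higher and 11.0% as lower.

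The counts for other genes of the chaperone system stand beside 36.9% higher and 28.1% lower among all tested genes, and beside 12.3% and 11.0% with the GC trend off. In the rest of the HSP70 family, 1 of 8 tested genes was higher in library 2 and 4 were lower, with a median log2 ratio of -1.08. With the trend off 0 were higher and 1 was lower, and the median was -0.28. Hspa5, the HSP70 of the endoplasmic reticulum, was at 273 TPM in library 2 and 255 TPM in library 1, while its scaled count passed as lower in library 2 (0.403-fold). Hspa9, the HSP70 of the mitochondria, was at 126 TPM in library 2 and 98.9 TPM in library 1. In the J-domain list, 2 of 9 were higher and 4 lower, and with the trend off 0 and 1. Dnajc7, which had the highest mean TPM of the list, was at 164 TPM in library 2 and 74.0 TPM in library 1, and Dnaja1, a partner of HSP70 in folding and import, at 75.4 TPM in library 2 and 129 TPM in library 1. Each of these levels lay between that of Hspa8 and those of Hspa1a and Hspa1b in both libraries.

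Of the 7 nucleotide exchange factors, 3 were higher and 1 was lower in library 2, and with the trend off 1 was higher and 3 were lower. Bag3, the autophagy partner of Hspb8, was at 30.6 TPM in library 2 and 5.31 TPM in library 1, beside 27.5 TPM in library 2 and 4.59 TPM in library 1 for Hspb8. By scaled counts Bag3 passed as higher in library 2, and with the trend off it passed as lower (log2 ratio -1.67). Of 14 genes for other HSP90 proteins and co-chaperones, 8 were higher and 6 lower, with the trend off 1 was higher and 0 lower, and the median was 0.04. Hsp90b1, the HSP90 of the endoplasmic reticulum, was at 252 TPM in library 2 and 392 TPM in library 1, and the immunophilin gene Fkbp4 was at 146 TPM in library 2 and 11.4 TPM in library 1. Of 10 chaperonin genes, 2 were higher and 3 lower, and with the trend off 1 was higher and 1 lower. Hspd1, the mitochondrial HSP60, was at 129 TPM in library 2 and 133 TPM in library 1, and its scaled count passed as lower (0.424-fold).

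In the rest of the small heat shock family, 3 of 6 genes entered the test, of which 2 were higher in library 2 and 0 lower, and with the trend off 0 were higher and 1, Hspb6, was lower (log2 ratio -2.27). Hspb6, found in smooth muscle, was at 24.0 TPM in library 2 and 11.5 TPM in library 1, and Hspb9 and the lens gene Cryaa were listed at 0 in both libraries. Among heat shock factors and their binding protein, 2 of 5 tested genes were higher and 2 lower, and with the trend off 1 was higher and 0 lower. Hsf1, the main activator of the inducible members, was at 20.4 TPM in library 2 and 0.11 TPM in library 1, on 539 expected counts in library 2 and 5 in library 1. Hsf2 was at 5.12 TPM in library 2 and 8.22 TPM in library 1. Of 6 listed targets of heat shock factors outside the families above, 5 were higher and 0 lower, and with the trend off 2 were higher and 2 lower. Ubb, a polyubiquitin gene, was at 1080 TPM in library 2 and 14.6 TPM in library 1; how far its reads are shared with other ubiquitin genes was not tested. Immediate early genes, which many stimuli induce quickly, summed to 523 TPM in library 2 and 108 TPM in library 1, or 694 and 345 nuclear TPM. Of these, 6 of 8 passed as higher, and with the trend off 0 were higher and 4 lower.

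Copies of the abundant members took few reads. Gm15459, a processed pseudogene of Hspa8 that holds 91.9% of its 31-base words in common with it, had 102 counts in library 2 and 117 in library 1. Gm8355, another copy, had 48.8 counts in library 2 and 16.1 in library 1. Gm12346, a copy of Hsp90aa1, had 10.2 counts in library 2 and 38.6 in library 1. The posterior standard deviation of the count was at most 17.6 for Hspa8 and 4.46 for Hsp90aa1, both in library 1.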

How the data were processed

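Polyadenylated RNA was measured in 2 technical libraries of 1 mouse. The authors deposited gene and transcript tables on mm10 with GENCODE M4, per the text files beside them. Per the file headers these hold the authors' expected counts (estimated counts), TPM, FPKM and posterior mean TPM, and, in percent, how much of a gene each transcript takes. The aligner, quantifier and use of strand: not given in the sources used here.

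Symbols matched 42462 of 43346 genes. Positions, transcript sequences and GC content (mean over transcripts, weighted by TPM) came from GENCODE M21 on GRCm38. Of 39 deposited member transcripts, 34 matched it and 30 had the same length there. Those of other length include the main transcripts of Cryab, Dnajb1 and Hsph1, whose GC content is of the later models.

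Expected counts were rounded. Genes with a mean of at least 10 entered a two-sided exact binomial test given effective library sizes (TMM, edgeR 4.0.16, R 4.3.3), since a quasi-likelihood fit needs more than 1 library a side. Passing needed a 2-fold ratio or more and a Benjamini-Hochberg adjusted p under 0.05. The prior count in ratios was 0.5. The GC trend was lowess with a fraction of 0.2 (statsmodels 0.14.6, Python 3.11.15). A count of 0 allows up to 3 counts. The test was tested on simulated Poisson counts with no GC trend: 94% of 200 changed genes were recovered among 15705. That setting differs from these libraries, so the rate does not carry over to them. The p-values measure counting error between these libraries only.

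All 10 members were named, with up to 4 genes of highest mean TPM per pathway list plus Hsf1, at most 2 per marker list, and genes at 0 in both. Near copies and genes overlapping a member are named as found. The members and lists were chosen with earlier results of these data known, the GC trend among them. Alternative scalings, filters, units and trends were tried. Matches between genes used 31-base words.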

Additional observations from a re-analysis of the deposited data

How the results depend on the processing

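The call of each of the 10 members held under median-of-ratios size factors, the nuclear protein-coding total as library size, no count minimum, a minimum of 50 and a prior count of 5. With the GC trend taken off, 1 member was higher and 2 lower in library 2, and of all genes 1933 were higher and 1715 lower. Hspa1a (-2.89), Hspa1b (-2.79), Hsp90ab1 (-0.019) and Dnajb1 (-0.077) then changed sign. With a length trend taken off, 3 members were higher and 1 lower, beside 4923 genes higher and 5460 lower of 15705 tested. Hspa1b (0.96), Hspb8 (0.73) and Dnajb1 (0.70) then came under 2-fold, and Hspa8 (-0.11) and Hsp90ab1 (-0.011) changed sign. At 1.5-fold, 7 members were higher, Hsp90ab1 among them, and 2 lower, beside 6509 genes higher and 5644 lower of 15705 tested. By the TPM ratio and fold alone, 8412 genes were higher and 755 lower, 7 members were higher, with Hspa8 newly past 2-fold (1.41), and Hsph1 changed sign (0.51). These alternatives differ by construction in what is taken off, and which value lies nearest the tissue was not tested. The mean summed level of the members was 2863 nuclear TPM. Over single libraries the summed TPM was 1031 to 1834 and the ratio of Hsp90aa1 to Hsp90ab1 0.192 to 0.705. By posterior mean, Hspb1-201 averaged 84.1% of its gene, where 9 counts limit library 1. At 90% of shared words, 4 near copies remained of 11. No paired analysis was possible because there is 1 group. Counts were lowest for Hspb1 (9) and Cryab (35) in library 1, where counting error is widest.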
